A study of Mus musculus with 2 samples.

Results

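The miR-17-92 cluster is a polycistronic microRNA (miRNA) locus of 6 hairpins, Mir17, Mir18, Mir19a, Mir20a, Mir19b-1 and Mir92-1, out of 2199 annotated mouse miRNA hairpins. Its reads were taken as all sequences of at least 18 nt that lay in sense and without mismatch within 1 of those hairpins, and each read was given to the 5p or the 3p arm by the side of the hairpin's midpoint on which its own middle fell. Small RNAs of 15 to 50 nt were gel-selected and sequenced from immortalized clonal lines of mouse mesenchymal stem cells (MSCs), a fibroblast type found in adult marrow, of C57BL/6 origin. The lines carried Dicer f/f, that is floxed alleles described as wild type, or Dicer -/-, called null here, and both were harvested near confluence from alpha-MEM that held 10% fetal bovine serum. Each genotype had 1 library, the title of the null library ends in the number 2 with no stated meaning, and being clonal, a line stands for its own clone. No difference below therefore has a replicate check, no test between genotypes was possible, and all intervals are 95% intervals of counting error alone. Even for counting error they may be too narrow, because PCR copies of a molecule are counted as separate reads.

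In the usual pathway, Drosha cuts a hairpin out of the primary transcript and so sets the start of the 5p arm and the end of the 3p arm, and Dicer then removes the terminal loop and so sets the end of the 5p arm and the start of the 3p arm. The seed, bases 2 to 8 of the mature miRNA, directs the choice of targets, and miRNAs with one seed are grouped as a family. The miR-17-92 locus is known as an oncogenic and developmental cluster that promotes proliferation and survival, with Bim (Bcl2l11) and Cdkn1a among the well-studied targets of its families. The X-linked miR-106a-363 and the Mcm7-hosted miR-106b-25 clusters are its paralogs.

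All 6 hairpins lie on the plus strand of chromosome 14 in exon 2 of the noncoding host gene Mir17hg (chr14:115042879-115046727, GRCm38 annotation), within 836 nt from the start of Mir17 to the end of Mir92-1. In genomic order they are Mir17 (chr14:115043671-115043754), Mir18 (chr14:115043851-115043946), Mir19a (chr14:115044000-115044081), Mir20a (chr14:115044157-115044263), Mir19b-1 (chr14:115044305-115044391) and Mir92-1 (chr14:115044427-115044506). RefSeq (GRCm38.p6) lists mature sequences for 11 of the 12 arms, and that of miR-19a-5p was not used here. The 6 leading arms fall into 4 seed families and are shown with the seed in capitals, since the seed defines the family. miR-17-5p and miR-20a-5p share AAAGUGC, miR-18a-5p has AAGGUGC, miR-19a-3p and miR-19b-3p share GUGCAAA, and miR-92a-3p has AUUGCAC.
miR-17-5p: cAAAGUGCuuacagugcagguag
miR-20a-5p: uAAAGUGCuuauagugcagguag
miR-18a-5p: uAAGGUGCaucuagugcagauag
miR-19a-3p: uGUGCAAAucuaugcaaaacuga
miR-19b-3p: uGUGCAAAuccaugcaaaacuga
miR-92a-3p: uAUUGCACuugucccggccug

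The hairpins of Mir18 and Mir19b-1 are printed whole with the mature arms in capitals, because they show where the extended and offset reads described below lie, in the loop next to these arms or just before the 5p arm.
Mir18: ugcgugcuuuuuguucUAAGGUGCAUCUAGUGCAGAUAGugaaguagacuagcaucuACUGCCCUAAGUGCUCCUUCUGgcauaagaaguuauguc
Mir19b-1: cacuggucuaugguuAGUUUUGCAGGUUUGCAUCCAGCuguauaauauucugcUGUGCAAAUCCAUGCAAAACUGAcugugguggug

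The f/f library held 9943989 reads and the null library 6291599 reads, of which 59.6% and 2.17% matched a miRNA hairpin. Dicer1 itself was seen only as mRNA fragments, 25 reads in f/f and 54 in null, which do not check the genotype because the labels do not name the deleted exon. Levels are given as CPM, the number of reads scaled to a library total of 1e+06. The share of reads that matched any transcript differed between the libraries, 64.8% in f/f and 19.2% in null, so the scale matters: per transcript-matched read every log2 ratio of null to f/f is 1.75 higher, and per read of small nucleolar and small nuclear RNAs (snoRNA and snRNA) it is 2.12 lower. Of the marker miRNA lists, 9 mesenchymal hairpins summed to 212514 CPM in the f/f library and 5124 in null with none at 0. The 5 haematopoietic hairpins summed to 19.4 CPM in f/f, with 1 at 0, and to 92.7 CPM in null, with none at 0. Mir451a, known to mature without Dicer, gave 508 of the 583 null reads of that list, and 157 reads in f/f. Mir223 had 9 reads in f/f and 38 in null, Mir142 11 and 30, and Mir144 0 and 5, whereas Mir150 had 16 and 2. The 7 epithelial hairpins summed to 3.72 CPM in f/f, with 2 at 0, and to 45.3 CPM in null, with 1 at 0. The endothelial list (1 hairpin) had 333 reads in f/f and 13 in null, the muscle list (3 hairpins, 1 at 0 in each library) 2237 and 8, and the neural list (3 hairpins, 1 at 0 in null) 996 and 15. The pluripotent list had 3 and 9 reads, with 7 of its 9 hairpins at 0 in each library. The part of such cells in the cluster's null reads was not tested.

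The first comparison asked how far the level of the cluster's small RNA differed between the f/f and null libraries. The cluster gave 106132 reads in f/f, or 10673 CPM, and 1740 reads in null, or 277 CPM. This was 38.6-fold lower in null (36.8 to 40.5), a log2 ratio of -5.27. Among miRNA reads alone the cluster held 1.79% in f/f and 1.28% in null, a log2 ratio of -0.49, so it was lower by somewhat more than miRNA reads as a whole. The f/f reads comprised 202 distinct sequences and the null reads 130. Reads of 18 to 23 nt, the usual size of mature miRNAs, were 136-fold lower in null (124 to 149), and reads of 24 nt or longer were 1.83-fold lower. Per transcript-matched read these longer reads were instead 1.84-fold higher in null (1.73 to 1.96). The threshold matters as well, since 3604 of the 3659 longer reads in f/f were exactly 24 nt. Reads of 25 nt or longer numbered 55 in f/f and 840 in null, and so were higher in null on the CPM scale.

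Arm by arm, 10 of the 12 arms had at least 100 reads in f/f. Of these 10, 9 were more than 2-fold lower in null, none was more than 2-fold higher, and 1, miR-19b-1-5p, was within 2-fold. Over all 314 miRNA species that reached this f/f minimum, 87.9% passed the same fold downwards and 5.41% upwards, so the cluster's count is near the background. The median log2 ratio was -5.43 over the 10 arms and -5.22 over the 314 species. With reads of 18 to 23 nt all 10 arms were more than 2-fold lower, against 96.3% of 295 species, of which a further 1.02% were higher by that fold.

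**Figure D1:**
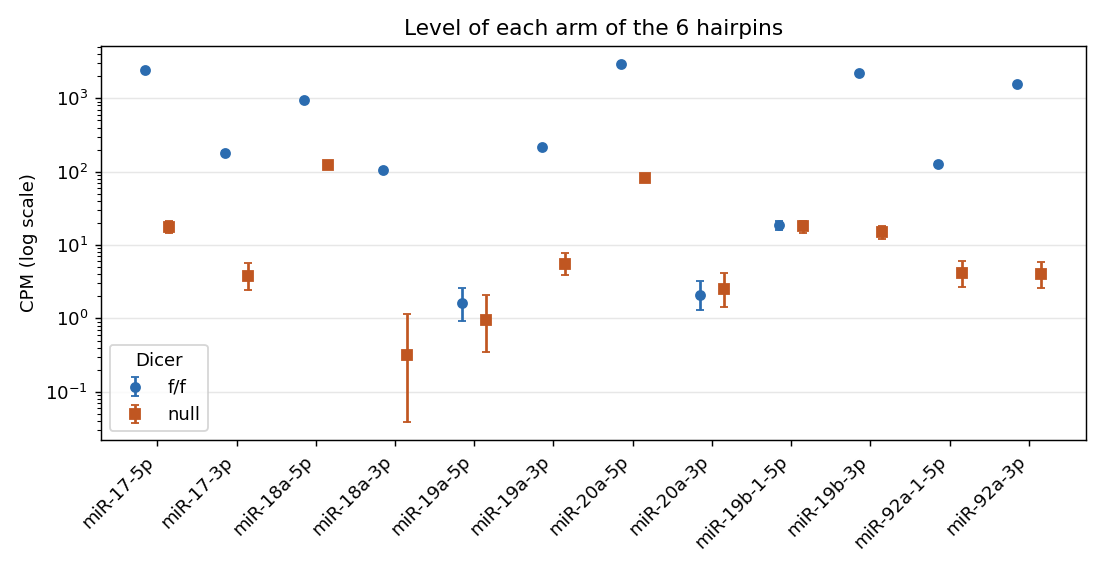
Level of each arm of the 6 hairpins in CPM on a log axis, with f/f as circles and null as squares and bars for the 95% Poisson intervals of the single library. The f/f level of the leading arms is between 216 and 2920 CPM, and the f/f and null points lie close together for miR-19a-5p, miR-20a-3p and miR-19b-1-5p.

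The AAAGUGC arms were the most abundant in f/f. miR-20a-5p had 29032 reads in f/f (2920 CPM) and 517 in null (82.2 CPM), 35.5-fold lower (32.6 to 38.8). miR-17-5p had 24041 reads in f/f (2418 CPM) and 112 in null (17.8 CPM), 136-fold lower (113 to 165). Thus miR-20a-5p stood above miR-17-5p in both libraries, and by more in null, where the intervals were 75.2 to 89.6 CPM and 14.7 to 21.4 CPM. miR-18a-5p, the AAGGUGC arm, had 9324 reads in f/f (938 CPM) and 769 in null (122 CPM). It was 7.67-fold lower (7.13 to 8.27), the smallest reduction among the 6 leading arms and the highest null level of any arm of the cluster.

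The leading arms of the other 2 families sat on the 3p side. miR-19b-3p, of the GUGCAAA family, had 21816 reads in f/f (2194 CPM) and 95 in null (15.1 CPM), 145-fold lower (119 to 180). miR-19a-3p, which shares its seed, had 2145 reads in f/f (216 CPM) and 35 in null (5.56 CPM), 38.8-fold lower (27.8 to 55.8). miR-92a-3p had 15396 reads in f/f (1548 CPM) and 25 in null (3.97 CPM), 390-fold lower (264 to 602). Over all reads of an arm, that was the largest reduction among the leading arms, and the interval lies above those of the other 5.

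The partner arms were less abundant in f/f. miR-17-3p had 1812 reads in f/f and 24 in null, 47.8-fold lower (32.0 to 74.8). miR-92a-1-5p had 1283 reads in f/f and 26 in null, 31.2-fold lower (21.2 to 48.0). miR-18a-3p had 1061 reads in f/f and only 2 in null, 336-fold lower with a wide interval (92.7 to 2775). The other 3 partner arms differed by less than 2-fold in the sum of all lengths. miR-19b-1-5p had 185 reads in f/f (18.6 CPM) and 113 in null (17.96 CPM), a ratio of null to f/f of 0.965 (0.757 to 1.23). miR-20a-3p had 21 and 16 reads, a ratio of 1.20 (0.587 to 2.42), and miR-19a-5p had 16 and 6 reads, a ratio of 0.593 (0.19 to 1.59). The direction of these 3 depends on the scale: per transcript-matched read their log2 ratios were 1.70, 2.02 and 0.9997, and per snoRNA and snRNA read -2.17, -1.85 and -2.87.

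Because the 6 hairpins were lower by different factors, the make-up of the cluster differed between the libraries, and these shares do not depend on the scale. Mir18 gave 9.78% of the cluster's reads in f/f (9.61 to 9.97) and 44.3% in null (42.0 to 46.7). Mir20a gave 27.4% and 30.6%, Mir17 24.4% and 7.82%, Mir19b-1 20.7% and 12.0%, Mir92-1 15.7% and 2.93%, and Mir19a 2.04% and 2.36%. Summed over both arms, the hairpins were lower in null by 8.52-fold for Mir18, 33.3-fold for Mir19a, 34.5-fold for Mir20a, 66.9-fold for Mir19b-1, 120.3-fold for Mir17 and 207-fold for Mir92-1. One transcript thus carried neighbours whose small RNA differed between the lines by factors that ranged from 8.52 to 207.

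**Figure D2:**
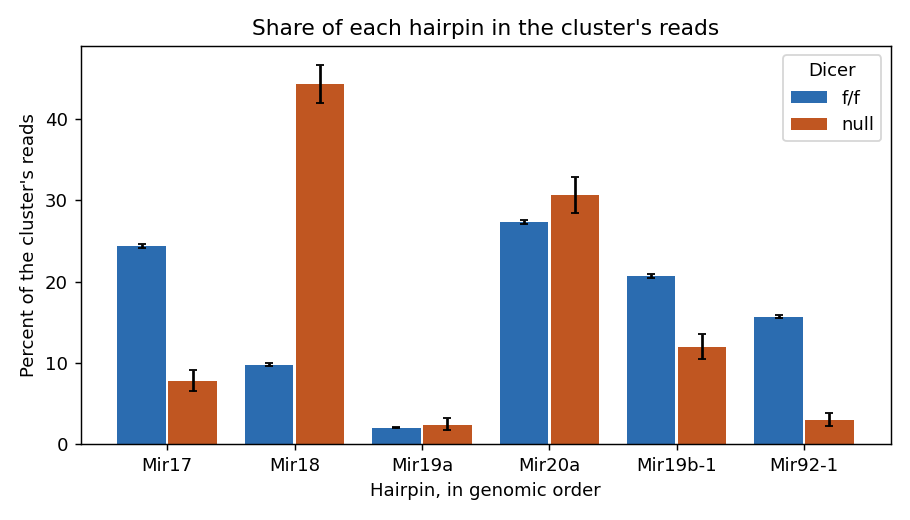
Percent of the cluster's reads given by each hairpin, in genomic order, for f/f and null, with 95% binomial intervals of counting error. Mir18 goes from 9.78% in f/f to 44.3% in null, whereas Mir17 and Mir92-1 take smaller shares in null.

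The arms also differed in balance. Reads on the 5p side made up 60.2% of the cluster's reads in f/f (59.9 to 60.5) and 88.7% in null (87.1 to 90.1). In f/f the 5p arm held 93.0% of Mir17 reads, 89.8% of Mir18 reads and 99.9% of Mir20a reads, but only 0.740% of Mir19a reads, 0.841% of Mir19b-1 reads and 7.69% of Mir92-1 reads. In null the last 3 hairpins had 14.6% (5.57 to 29.2), 54.3% (47.3 to 61.2) and 51.0% (36.6 to 65.2) on the 5p side. For Mir19b-1 the f/f ratio of 118 reads of the 3p arm per read of the 5p arm became 0.841 in null. This rests on shared reads, since 21786 of its f/f 3p reads also fit the X-linked Mir19b-2. Over reads of no other hairpin, its 3p and 5p arms had 30 and 185 reads in f/f and 82 and 113 in null, the opposite direction. The cluster's 5p share over such reads was 77.4% in f/f and 89.3% in null.

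The lengths of the reads also differed between the libraries. In f/f 66.0% of the cluster's reads were 23 nt and 24.2% were 22 nt, and 3.45% were 24 nt or longer (3.34 to 3.56). In null the commonest lengths were 26 nt, with 25.98% of reads, and 24 nt, with 24.4%, and a further 8.16% were 28 nt. Reads of 24 nt or longer made up 72.6% of the null reads (70.5 to 74.7). Over the 164 species that had at least 100 reads in f/f and 20 in null, the median share of long null reads was 68.3%, and over the 9 cluster arms with 20 or more null reads it was 42.0%. The pooled share of the cluster rests mostly on miR-18a-5p and miR-20a-5p, with 624 and 393 of its 1264 long null reads. Over these 9 arms the share ran from 0% of 25 reads for miR-92a-3p, through 42.0% for miR-17-5p, 76.0% for miR-20a-5p and 81.1% for miR-18a-5p, to 97.3% for miR-19b-1-5p. The files hold reads of at most 36 nt, shorter than the 58 to 64 nt from 5p start to 3p end of these hairpins. No read could thus show an uncut precursor whole, but a 36-nt read could be the first part of a longer RNA. On the 5p side of Mir18, 7 null reads and 0 f/f reads were 36 nt long. Of these, 4 were a single sequence that began at the 5p start and held the whole predicted loop. Whether they came from longer RNA was not tested.

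**Figure D3:**
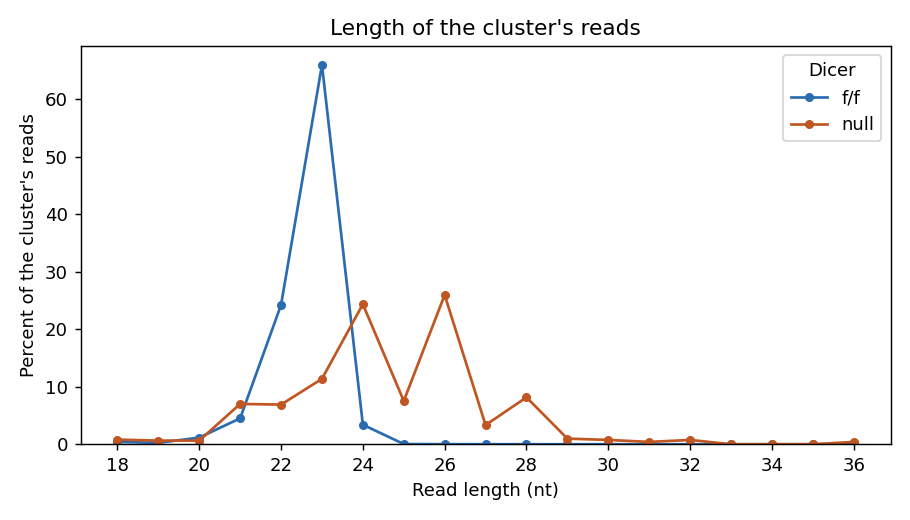
Percent of the cluster's reads at each length in nt, for f/f and null. The f/f line has 1 peak at 23 nt with 66.0% of reads, and the null line has peaks at 24, 26 and 28 nt.

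Most 5p reads of null began where those of f/f did and ended further on, least often so in miR-17-5p. Of the cluster's 5p reads, 97.7% in f/f and 90.7% in null (89.2 to 92.1) began at the commonest f/f start, which Drosha sets in the usual pathway. The commonest f/f end, which Dicer sets, was used by 79.6% of 5p reads in f/f and by 8.10% in null (6.79 to 9.58). Reads that kept the f/f start and ran past the f/f end were 4.69% in f/f and 74.5% in null (72.2 to 76.6). By arm, the f/f start was kept by 97.9% of null reads of miR-18a-5p, 90.3% of miR-19b-1-5p, 88.5% of miR-92a-1-5p and 86.8% of miR-20a-5p, but by 59.8% of miR-17-5p (50.1 to 69.0). Those that kept it and ran longer were 80.5%, 87.6%, 76.9%, 71.0% and, for miR-17-5p, 33.9% (25.2 to 43.5). The commonest of these extended null reads are shown as sequenced, with T for U and the bases past the RefSeq mature end in capitals; each capital matches the hairpin.
miR-17-5p, null: caaagtgcttacagtgcaggtagTGA
miR-18a-5p, null: taaggtgcatctagtgcagatagTGA
miR-20a-5p, null: taaagtgcttatagtgcaggtagTGT
miR-20a-5p, null, longer: taaagtgcttatagtgcaggtagTGTGT
miR-19b-1-5p, null: agttttgcaggtttgcatccagcT
miR-92a-1-5p, null: aggttgggatttgtcgcaatgctGTGT

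The 26-nt form of miR-18a-5p had 250 reads in null and 1 in f/f, and a 24-nt form with a single further T had 236 in null and 402 in f/f. The 26-nt form of miR-20a-5p had 144 reads in null and 2 in f/f, and the 28-nt form 110 and 2. The 26-nt form of miR-17-5p had 24 and 2 reads. The 24-nt form of miR-19b-1-5p had 49 and 4 reads, and the 27-nt form of miR-92a-1-5p had 20 and 0. The 6 null reads of miR-19a-5p were a single 28-nt sequence that f/f lacked. Apart from that of miR-19a-5p, for which no mature sequence was used, each of these forms kept the seed of its mature miRNA, since its start was the f/f start.

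**Figure D4:**
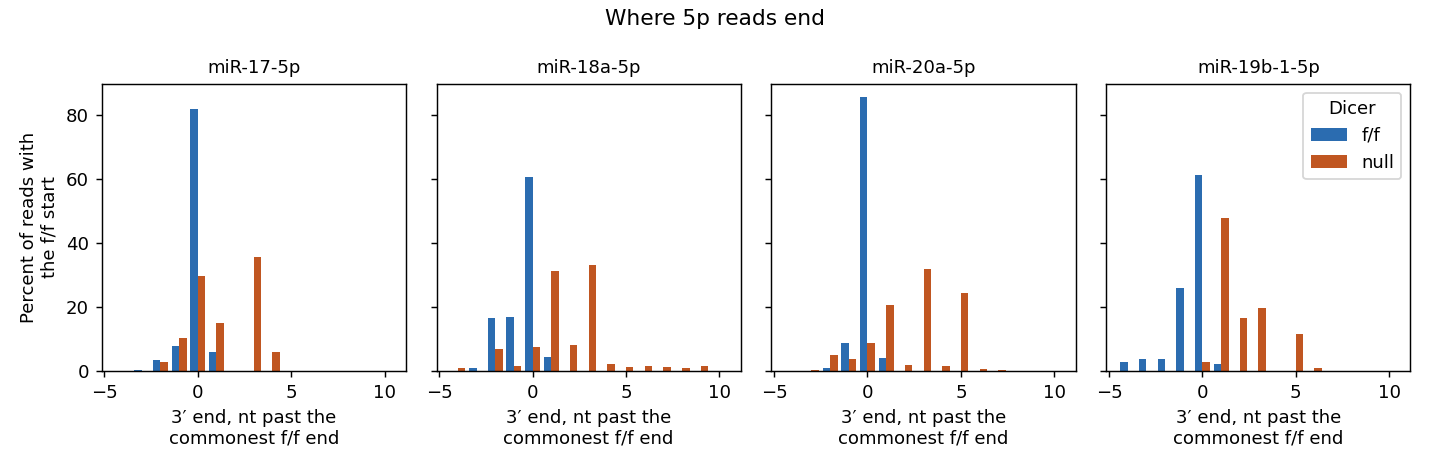
Position of the 3′ end of 5p reads that keep the f/f start, in nt past the commonest f/f end, as percent of such reads in each library for miR-17-5p, miR-18a-5p, miR-20a-5p and miR-19b-1-5p. The f/f bars stand highest at 0 and the highest null bar stands 3 nt past it for miR-17-5p, miR-18a-5p and miR-20a-5p and 1 nt past it for miR-19b-1-5p.

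Counted over reads of 24 nt or longer alone, 4 arms had at least 100 f/f reads, and 3 of them were more than 2-fold lower in null and 1 more than 2-fold higher. Among 80 species so measured, 71.2% passed that fold downwards and 21.2% upwards. The higher one was miR-18a-5p, with 428 long reads in f/f and 624 in null, a ratio of 2.30 (2.03 to 2.61), which was 0.53 per snoRNA and snRNA read (0.468 to 0.601). These calls rest on the 24-nt form in f/f, 1554 of 1563 long reads for miR-17-5p and 1287 of 1297 for miR-20a-5p. It was 281 of 292 for miR-19a-3p and 423 of 428 for miR-18a-5p. At 26 nt the f/f and null reads were 2 and 26 for miR-17-5p and 2 and 150 for miR-20a-5p. They were 1 and 250 for miR-18a-5p and 0 and 0 for miR-19a-3p. miR-19b-1-5p, below the minimum of 100 reads in f/f, had 4 long reads in f/f and 110 in null, a ratio of 43.5 (16.5 to 162), and a log2 ratio of 3.32 per snoRNA and snRNA read. Its short reads went the other way, 181 in f/f and 3 in null, 38.2-fold lower (12.9 to 187), so the near equal sums of miR-19b-1-5p were made of reads of different lengths. The exact sequence that was commonest in f/f had 0 null reads in 4 arms, miR-17-3p, miR-18a-3p, miR-19a-5p and miR-20a-3p. With 0 taken as at most 3 counts, it was at least 145-fold lower for miR-17-3p and 150-fold for miR-18a-3p. For miR-19a-5p and miR-20a-3p, with only 7 and 15 f/f reads, the bounds were 1.48-fold and 3.16-fold. In the leading arms the commonest f/f sequence was 598-fold lower for miR-17-5p, 389-fold for miR-20a-5p, 62.1-fold for miR-18a-5p, 102-fold for miR-19a-3p, 1164-fold for miR-19b-3p and 335-fold for miR-92a-3p.

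Many extended reads ended within the terminal loop that RNAfold predicts for the hairpin. Among null reads with the 5p start, the last base lay in the loop in 324 of 761 for Mir18 (42.6%), 119 of 472 for Mir20a (25.2%), 99 of 102 for Mir19b-1 (97.1%), 20 of 23 for Mir92-1, all 6 for Mir19a and 0 of 91 for Mir17. Over the 6 hairpins this was 39.0% in null (36.5 to 41.6) and 0.011% in f/f, 7 of 63772 reads. The predicted loop begins 0 nt past the 5p end in Mir19b-1, 2 nt in Mir18 and Mir19a, 3 nt in Mir92-1, 4 nt in Mir20a and 5 nt in Mir17.

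Reads that held the whole predicted loop, and so parts of both arms or the stretch between them, numbered 5 in f/f and 64 in null, 3.68% of null reads (2.84 to 4.67). Mir17 gave 27 of the 64 and Mir19b-1 gave 20. The commonest of each is shown because it crosses the site at which the arms are separated in f/f; the first had 15 reads and the second 12 in null, and both had 0 in f/f.
Mir17, null: aggtagtgatgtgtgcatcta
Mir19b-1, null: gctgtataatattctgctgtgc

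The few 3p reads of null mostly did not begin at the mature start. Of the cluster's 3p reads, 98.5% in f/f and 22.8% in null (17.2 to 29.3) began at the commonest f/f start. For miR-19b-3p, 83 of 95 null reads began earlier, towards the loop, and for miR-17-3p all 24 did, for miR-19a-3p 25 of 35, and for miR-20a-3p all 16. Both null reads of miR-18a-3p also began earlier. In miR-92a-3p, by contrast, 24 of 25 null reads began at the f/f start. Those 24 were all the commonest f/f form, 22 nt long and without a longer form among them, against 12719 such reads in f/f.

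**Figure D5:**
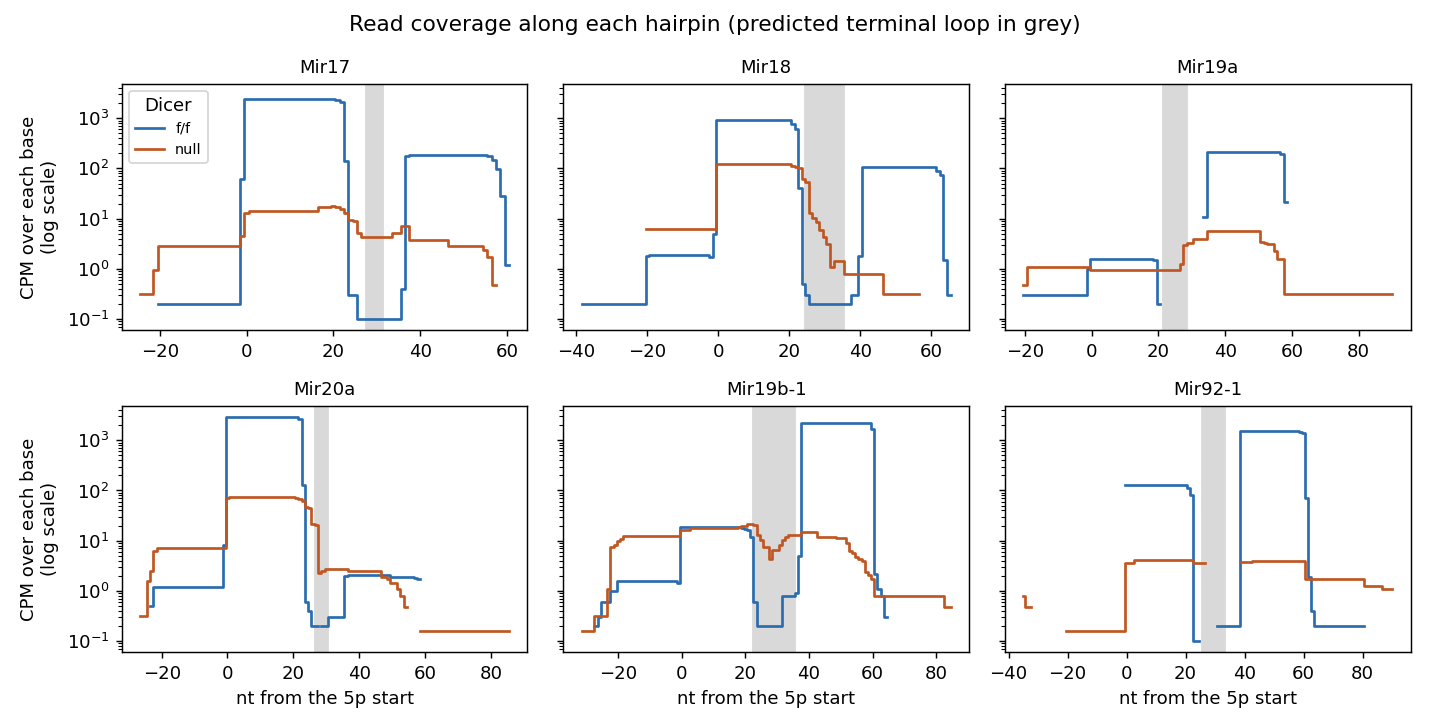
Number of reads over each base of the host transcript around each hairpin, in CPM on a log axis, by distance in nt from the 5p start, with the predicted terminal loop in grey; a gap in a line is a base with 0 reads. In f/f the arms stand out as blocks with a steep drop at the loop. In null the coverage runs on from the 5p arm into the loop in Mir18, Mir19a, Mir20a and Mir19b-1, and in Mir92-1 only to the first loop base. In Mir17 the null coverage of the loop comes from reads without the 5p start. From 2 nt before the 5p start outwards over the offset reads, null coverage is above f/f in Mir17, Mir18, Mir19a, Mir20a and Mir19b-1.

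Reads next to the arms, of the kind called miRNA-offset RNAs, were more frequent in null than in f/f. These end within 1 nt of the base before the 5p start or begin within 1 nt of the base after the 3p end, so that they lie against the side that Drosha cuts in the usual pathway. There were 52 in f/f and 207 in null, a ratio of 6.29 (4.62 to 8.70) on the CPM scale. The ratio was 21.2 per transcript-matched read and 1.45 (1.06 to 2.0) per snoRNA and snRNA read. On the 5′ side alone there were 50 and 188 reads, 5.94-fold higher in null (4.33 to 8.29), and per snoRNA and snRNA read the interval, 0.996 to 1.91, includes 1. By hairpin, the 5′ reads numbered 16 in f/f and 78 in null for Mir19b-1, 12 and 44 for Mir20a, 17 and 40 for Mir18, 2 and 18 for Mir17, 3 and 7 for Mir19a, and 0 and 1 for Mir92-1. On the 3′ side Mir92-1 had 2 and 11 reads. The commonest are shown with their last base directly before the 5p start of the sequences printed above.
Mir17, 5′ offset: gtgaccagtcagaataatgt
Mir18, 5′ offset: gtgctgcgtgctttttgttc
Mir20a, 5′ offset: gatgtgacagcttctgtagcac
Mir19b-1, 5′ offset: tattgagcactggtctatggtt

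The 20-nt Mir18 offset read had 16 reads in f/f and 38 in null, the 22-nt Mir19b-1 read 4 and 40, the 22-nt Mir20a read 7 and 23, and the 20-nt Mir17 read 2 and 12. The Mir20a offset reads lie within the annotated hairpin, so they are part of the miR-20a-5p counts, 12 of 29032 in f/f and 44 of 517 in null. The remainder cross an edge of the annotation and were found on the host transcript. That transcript gave 42 reads outside the hairpins in f/f and 163 in null, all of which crossed a hairpin's edge. No read of either library lay between the hairpins, upstream of Mir17 or downstream of Mir92-1, so that, by the limit of 3 counts, up to 0.302 CPM could be missed in f/f and 0.477 in null. A difference in the amount of the host transcript itself was thus not detectable at this depth. Apart from paralogous miRNA hairpins, no transcript of another gene held any of the cluster's reads.

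Some reads carried bases after the matched part that the hairpin does not encode. Counting extensions of up to 3 bases, 22.3% of 5p reads in f/f (22.0 to 22.6) and 8.15% in null (6.89 to 9.57) were extended, and 12.2% of 3p reads in f/f and 4.83% in null (2.34 to 8.70). Of the extended 5p reads, 79.6% in f/f carried only A, and 9.62% only U, whereas in null 34.3% carried only A and 48.2% only U. Among 5p reads whose templated part was 24 nt or longer, the shares that were extended lay together, 7.89% in f/f (7.03 to 8.82) and 8.45% in null (7.0 to 10.1). With a templated part of 18 to 23 nt they lay apart, 22.9% in f/f (22.6 to 23.2) and 7.10% in null (4.69 to 10.2). miR-20a-5p was extended most often among the leading 5p arms, in 26.4% of f/f and 15.0% of null reads. A sequencing error at a read's end and an added base cannot be told apart.

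Part of the 3p signal could come from the X-linked paralog. Of the miR-19b-3p reads, 21786 in f/f fit both Mir19b-1 and Mir19b-2, 30 fit Mir19b-1 alone and 390 fit Mir19b-2 alone. In null 13 fit both, 82 Mir19b-1 alone and 0 Mir19b-2 alone, so that the null reads of miR-19b-3p were mostly loop-side reads that name the copy. Over reads of Mir19b-1 alone, miR-19b-3p had 30 in f/f and 82 in null, a log2 ratio of 2.11, in the opposite direction from the total. For miR-92a-3p, 13580 f/f reads fit Mir92-1 alone, 1816 fit both copies and 297 Mir92-2 alone, but in these reads the copy is mostly named by bases after the mature end, where an added base and an encoded one cannot be told apart. The same holds for the f/f miR-19b-3p reads that fit Mir19b-2 alone. The other X-linked hairpins were close to 0: Mir106a had 4 f/f reads, Mir20b 1, Mir18b and Mir363 0, and the 5p arms of Mir19b-2 and Mir92-2 0, and all had 0 in null.

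The miR-106b-25 cluster, the other paralog, was below miR-17-92 in f/f, with 93033 reads (9356 CPM), and above it in null, with 6460 reads (1027 CPM). The order in f/f depends on shared reads, since miR-17-92 had 82530 f/f reads that fit no hairpin outside it. All 93033 of miR-106b-25 were of that kind. The miR-106b-25 cluster was 9.11-fold lower in null (8.88 to 9.35). Its 3 hairpins also differed among themselves: Mir106b was 4.69-fold lower, Mir93 56.4-fold and Mir25 504-fold. Mir25, whose 3p arm has the miR-92a seed, was thus the most reduced there, as Mir92-1 was within miR-17-92. Both rankings are of hairpin sums over all reads. By the commonest f/f sequence of each leading arm, miR-92a-3p was 335-fold lower. On that measure miR-19b-3p (1164-fold), miR-17-5p (598-fold) and miR-20a-5p (389-fold) were lower by more, and miR-18a-5p (62.1-fold) and miR-19a-3p (102-fold) by less. Seed families were summed over the hairpins of miR-17-92 and these paralogs alone, and other hairpins were not counted. Of the reads on their AAAGUGC arms, miR-17-92 arms gave 40.2% in f/f and 9.02% in null, the rest coming mostly from miR-106b-5p and miR-93-5p. Of the reads on their AUUGCAC arms, miR-92a-3p of Mir92-1 gave 60.03% in f/f and 92.6% of the 27 in null.

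Among 134 species outside these clusters that held 1000 or more reads in f/f and any in null, those with a log2 ratio nearest to that of the cluster were Mir100-5p (38.7-fold lower), Mir101a-3p (40.4-fold lower) and Mirlet7i-5p (36.5-fold lower). Nearest in the share of null reads of 24 nt or longer were Mir151-3p with 72.7% of only 22 null reads, Mir423-3p with 72.9% of 59 and Mir125a-5p with 73.3% of 161, so the 2 measures picked different species.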

How the data were processed

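Small RNA from 1 f/f and 1 null library was analysed. The deposited files list each distinct read with its raw count, per the files' contents, and the submitters' processing notes name build mm9; trimmer and aligner: not given in the sources used here. Total counts were 9943989 and 6291599 reads.

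Reads of 18 nt or longer were matched in sense without mismatch to GENCODE M21 transcripts (GRCm38), with Python 3.11.15 and numpy 2.4.6, and no coordinate was converted. Levels are CPM. Intervals are exact binomial (Clopper-Pearson) or Poisson at 95% (scipy 1.17.1), and the limit for 0 reads is 3 counts. Loops were predicted with RNAfold 2.7.2. Matching and intervals were tested on simulated data.

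With 1 library a genotype, no test was run, and a fold above 2 counted as a difference. All 6 members with both arms, their commonest reads, the 9 paralog hairpins and, per measure, the 3 most similar species were named. The members and lists were chosen with earlier results of these data known. Alternatives were other denominators, length classes, copy minimums, reads of 1 hairpin alone and reads with up to 3 untemplated last bases.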

Additional observations from a re-analysis of the deposited data

How the results depend on the processing

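No paired analysis was possible because each genotype had 1 library, and no replicate could be left out. The log2 ratio of the cluster, -5.27, was -3.52 per transcript-matched read, -7.39 per snoRNA and snRNA read, -0.49 per miRNA read, -7.09 with 18 to 23 nt, -0.87 with 24 nt or longer, -4.92 with reads of no other hairpin and -5.45 with untemplated additions. The number of arms more than 2-fold lower, 9, was 3 with 24 nt or longer, where 4 arms were measured. The share of long reads in f/f was 4.43% with reads of no other hairpin, 13.3% with untemplated additions and 0.052% from 25 nt, and in null 48.3% from 25 nt. The 5p share in f/f was 77.4%, 63.1% and 59.1% with reads of no other hairpin, untemplated additions and 18 to 23 nt, and in null 71.4% with 18 to 23 nt. With 24 nt or longer, log2 ratios reversed for miR-17-3p (1.34, 5 f/f reads), miR-18a-5p (1.20), miR-19b-3p (0.26, 33 f/f reads) and miR-92a-1-5p (5.18, 1 f/f read), and with reads of no other hairpin for miR-19b-3p (2.11). Chosen after seeing the data, the other scales reversed the long reads of miR-18a-5p (-0.92 per snoRNA and snRNA read) and of the cluster (0.88 per transcript-matched read). The cause was not tested.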
